A study of Homo sapiens with 8 samples.

Results

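The response of a thyroid epithelial cell line to 6 h of thyroid hormone was taken from 4 of the 8 libraries of the series, chosen by their labelled treatment and time. Nthy-ORI cells, a line from normal human thyroid follicular epithelium, were kept for 24 h in phenol-red free medium with charcoal-stripped serum, which removes hormone. They then received 10 nM T3 (triiodothyronine, the active thyroid hormone) or NaOH, its vehicle, for 6 h, with 2 libraries of ribosomal RNA-depleted total RNA in each group. The other 4 libraries, vehicle and T3 at 24 h, entered only the shared estimate of spread and the comparisons named as such. The labels do not tie the libraries of a group to separate cultures, and the p-values reflect only how far these libraries differ, which may be technical.

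T3 acts through nuclear receptors encoded by THRA and THRB, which sit on DNA as partners of retinoid X receptors. Without hormone these receptors recruit corepressors at many target genes, and hormone binding exchanges these for coactivators, while other genes are repressed by hormone. Early transcript changes can include direct receptor targets as well as the first secondary changes in metabolism, growth and stress pathways.

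Library totals were 3428165 and 2517983 counts with vehicle and 3043258 and 5450752 with T3, and levels are given as CPM (reads of a gene scaled to a common library size) after TMM scaling between libraries, vehicle library 1 and 2 before T3 library 1 and 2. Of 14611 genes tested, 1117 (7.64%) passed an adjusted p of 0.05 in the edgeR quasi-likelihood test, 553 higher (3.78%) and 564 lower (3.86%) with T3. The split shifted from 49.5% higher among calls to 25.8% when libraries were scaled by their totals alone and to 30.6% after correction for GC content and length, where 138 genes (1.1%) were higher and 313 (2.49%) lower. Falls were larger than rises, with a median fold of 2.29 against 1.55, and the 382 calls of at least 2-fold (2.61%) held 54 rises (0.37%) and 328 falls (2.24%). The groups did not overlap for any call, nor for 59.7% of all tested genes. Leaving out vehicle library 1, vehicle library 2, T3 library 1 or T3 library 2 left 131, 612, 134 and 154 calls. Calls that persisted without each of these libraries in turn, in a fit of only the 4 libraries and after GC and length correction are termed stable calls below. They numbered 69, of which 24 were higher (0.164%) and 45 lower (0.308%).

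The libraries differed in more than treatment. Mitochondrial ribosomal RNA made up 0.0137% and 0.00226% of the counts with vehicle and 0.747% and 0.278% with T3. Reads that the counting assigned to no feature took 58.2% and 56.6% of reads not marked as multiply aligned with vehicle and 52.2% and 53.5% with T3. The counted feature type and strand setting are not stated, so these reads need not lie outside genes. Median GC content was 39.6% among genes called higher, 56.2% among those called lower and 48.2% among the rest. Of 10 thyroid markers, 4 had no counts, TG, TSHR and DUOX2 among them, and 3 (PAX8, FOXE1 and HHEX) reached 5 CPM in at least 1 library. PAX8 did so only with vehicle (9.95 and 13.5 against 4.34 and 4.02 CPM with T3). It was called lower (log2 fold change -1.47, edgeR adjusted p = 0.012) but was not a stable call. PAX8 is also among the genes far more abundant at 24 h described below, with a mean there 15.5-fold that of the 6 h libraries. The 6 epithelial markers summed to 1064 to 1235 CPM without CDH1 or KRT19 at a substantial level. Of 6 fibroblast markers 3 had no counts, and their sum was 1.81 to 4.22 CPM. The part of these differences in the results below was not tested.

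T3 raised KLF9, a transcription factor gene and established receptor target, from 0.904 and 0.818 CPM, on 3 and 2 reads, to 13.4 and 14.1 CPM (log2 fold change 3.95, SE 0.50, edgeR adjusted p = 0.0002). HR, which encodes a corepressor and is another receptor target, went from 68.4 and 58.5 to 116 and 102 CPM (log2 fold change 0.77, edgeR adjusted p = 0.012), a call lost without any 1 of the 4 libraries (highest adjusted p = 0.187). The receptor transcripts were also measured. THRA fell from 82.9 and 63.8 to 48.1 and 46.5 CPM (log2 fold change -0.64, edgeR adjusted p = 0.0412), and this call too was lost without any of the 4 libraries (highest adjusted p = 0.504) and after GC and length correction (adjusted p = 0.24). THRA shares genome with NR1D1 on the opposite strand, and the strand setting of the counting is not given in the sources used here. THRB stood at 6.63, 9.002, 3.98 and 5.43 CPM and was not called (log2 fold change -0.66, edgeR adjusted p = 0.3).

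Besides KLF9 and 10 metallothionein, zinc exporter and heat shock genes, 13 genes made up the stable rises, led by TNS4, NPTX1 and HEG1. TNS4, which encodes the focal adhesion adaptor tensin 4 (chromosome 17, 40475828 to 40501597, minus strand, GRCh38), had 8.44 and 8.18 CPM with vehicle and 68.4 and 61.6 CPM with T3. This 7.77-fold rise (log2 fold change 2.96, SE 0.26, edgeR adjusted p = 7.09e-06) rested on 28 and 20 reads against 189 and 306. HEG1, a transmembrane protein of cell junctions (chromosome 3, 124965710 to 125055958, minus strand), went from 83.2 and 89.2 to 232 and 238 CPM (log2 fold change 1.45, SE 0.12, edgeR adjusted p = 2.68e-06). NPTX1, a secreted pentraxin best known from neurons, rose from 21.4 and 16.0 to 55.0 and 57.3 CPM (log2 fold change 1.57, SE 0.23, edgeR adjusted p = 0.000713). In each of the 3 genes both T3 libraries lay above both vehicle libraries, as they did for every gene called higher.

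Smaller stable rises reached 1.76 to 2.15-fold. DSEL, an epimerase of dermatan sulfate synthesis, had 136 and 142 CPM with vehicle and 290 and 307 CPM with T3 (log2 fold change 1.10, edgeR adjusted p = 0.000378). VGLL3, a TEAD cofactor, had 91.3 and 106 against 190 and 183 CPM, and PHLDB2, which anchors microtubules at the cell edge, had 56.4 and 69.2 against 112 and 128 CPM. RDX, which encodes radixin and links actin to the membrane, rose from 133 and 147 to 253 and 245 CPM. CHML, a Rab escort protein gene, DYNLL1, a dynein light chain gene, CYCS, the cytochrome c gene, and NOL11, a nucleolar protein gene, rose by 0.83, 0.89, 0.81 and 0.88 on the log2 scale. CHML lies within OPN3 on the same strand, so the source of its reads is less certain. OPN3 was itself called higher (log2 fold change 0.58, edgeR adjusted p = 0.045), though not as a stable call. Of 21 tested focal adhesion adaptors 2 rose (TNS4 and CAV1), and 2 fell, the tensin genes TNS2 and TNS3, by 1.5 and 0.66. Over all tested genes 3.78% rose and 3.86% fell, and nothing is read from these counts. CAV1, TNS2 and TNS3 lost their calls without vehicle library 1, T3 library 1 or T3 library 2 (highest edgeR adjusted p = 0.279, 0.226 and 0.232), and CAV1 also without vehicle library 2.

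**Figure D1:**
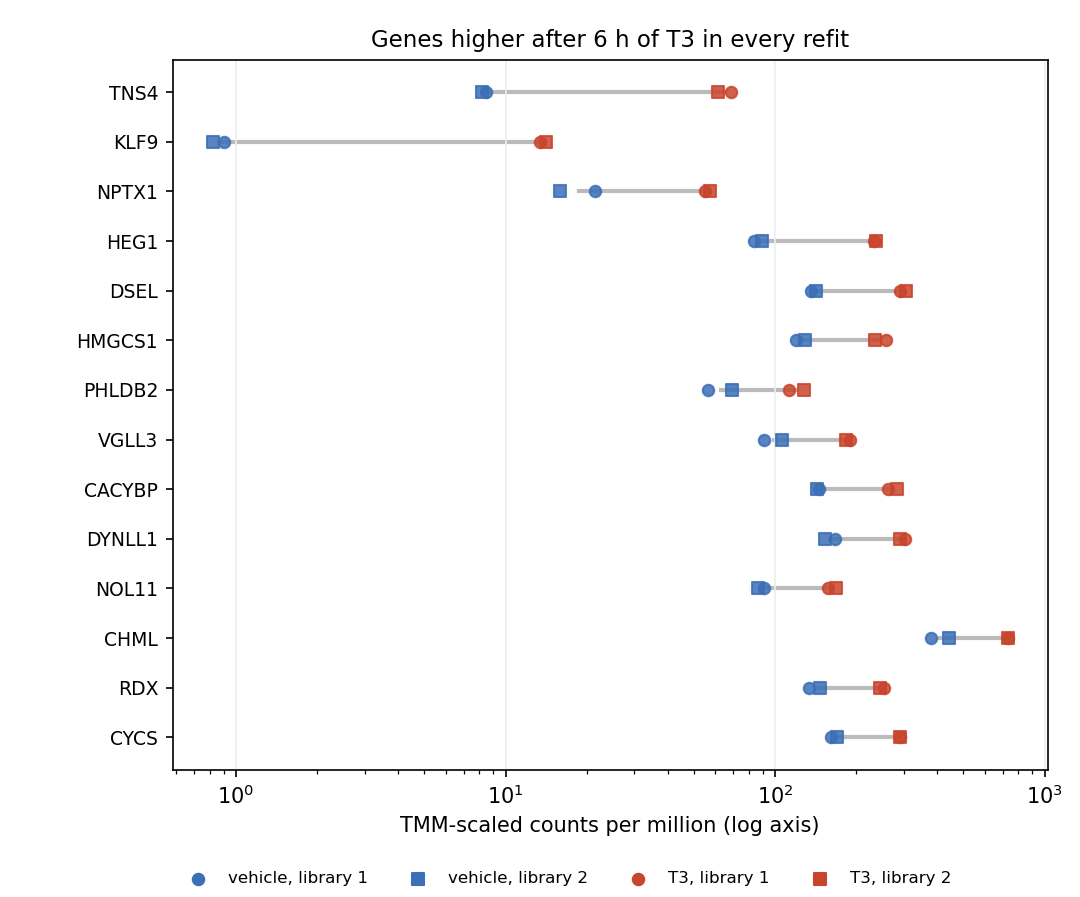
Level of 14 genes in each 6 h library, on a log axis of TMM-scaled CPM, with vehicle in blue, T3 in red, circles for library 1, squares for library 2, and a grey bar joining the group means. The T3 libraries lie to the right of the vehicle libraries for all 14 genes, from 7.77-fold for TNS4 to 1.76-fold for CYCS, and farther for KLF9, whose vehicle level rests on 3 and 2 counts. The genes shown were picked among the stable rises, so this separation follows from the choice.

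The most concentrated fall was in genes of the ATF4 programme. ATF4 is the transcription factor translated when eIF2 is phosphorylated in the integrated stress response, and it induces amino acid synthesis, transport and tRNA charging as well as its own feedback genes. Of 16 tested transcription factor and feedback genes 12 were lower and 1 was higher, with a median log2 fold change of -1.15 against -0.02 over all tested genes. Over all tested genes 3.86% were lower and 3.78% higher. Between 8 and 11 of the 16 stayed lower without any 1 of the 6 h libraries (8 without vehicle library 1, 11 without vehicle library 2, 9 without T3 library 1, 8 without T3 library 2), and 13 were lower after GC and length correction. Earlier results of these data had led to this list, so its direction is not independent evidence.

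Among the feedback genes, TRIB3, a pseudokinase that restrains ATF4 output, fell from 310 and 254 to 104 and 98.2 CPM (log2 fold change -1.48, SE 0.16, edgeR adjusted p = 3.68e-05). DDIT4, an inhibitor of mTORC1, went from 319 and 248 to 105 and 115 CPM, and SESN2, another mTORC1 inhibitor, from 47.9 and 52.0 to 17.7 and 14.3 CPM. The secreted factors GDF15 (55.5 and 55.6 to 17.0 and 18.5 CPM) and STC2 (195 and 202 to 90.1 and 90.1 CPM) fell by 1.64 and 1.14 on the log2 scale. DDIT3, the gene of the stress factor CHOP, fell from 78.4 and 65.9 to 31.9 and 30.6 CPM. These 6 were stable calls, and the groups did not overlap, as for every call. INHBE, an activin subunit gene induced by ATF4 in other cells but not on the list (chromosome 12, 57452323 to 57459280, plus strand), showed a deeper stable fall, from 18.4 and 25.0 to 3.26 and 4.02 CPM (log2 fold change -2.52, SE 0.35, edgeR adjusted p = 0.000581).

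CHAC1, which degrades glutathione, had 21.1 and 18.0 CPM with vehicle and 5.79 and 3.82 CPM with T3 (log2 fold change -2.09, SE 0.32, edgeR adjusted p = 0.00129), a call that narrowly missed without T3 library 2 (adjusted p = 0.0566). NUPR1, a stress-induced chromatin protein gene, had 108 and 100 against 52.1 and 49.9 CPM and missed in the same way (adjusted p = 0.0511). A few further members were chosen after their values were seen. ATF4 itself fell from 655 and 531 to 385 and 369 CPM (log2 fold change -0.66, edgeR adjusted p = 0.00605), and CEBPB, a partner of ATF4, from 150 and 137 to 58.6 and 68.6 CPM (log2 fold change -1.17, edgeR adjusted p = 0.00181). PPP1R15A, the inducible subunit that dephosphorylates eIF2, fell from 167 and 144 to 76.0 and 88.7 CPM, while its constitutive relative PPP1R15B rose from 481 and 491 to 646 and 661 CPM (log2 fold change 0.43, edgeR adjusted p = 0.0258). Without vehicle library 1 the calls of ATF4, CEBPB, PPP1R15A and PPP1R15B were lost, with highest adjusted p over the leave-outs of 0.15, 0.0502, 0.0836 and 0.23. PPP1R15A was also lost without T3 library 1, ATF4 without either T3 library, and PPP1R15B without any 6 h library and after GC and length correction. VLDLR, a lipoprotein receptor gene, was the last of the 12 and fell by 1.17.

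**Figure D2:**
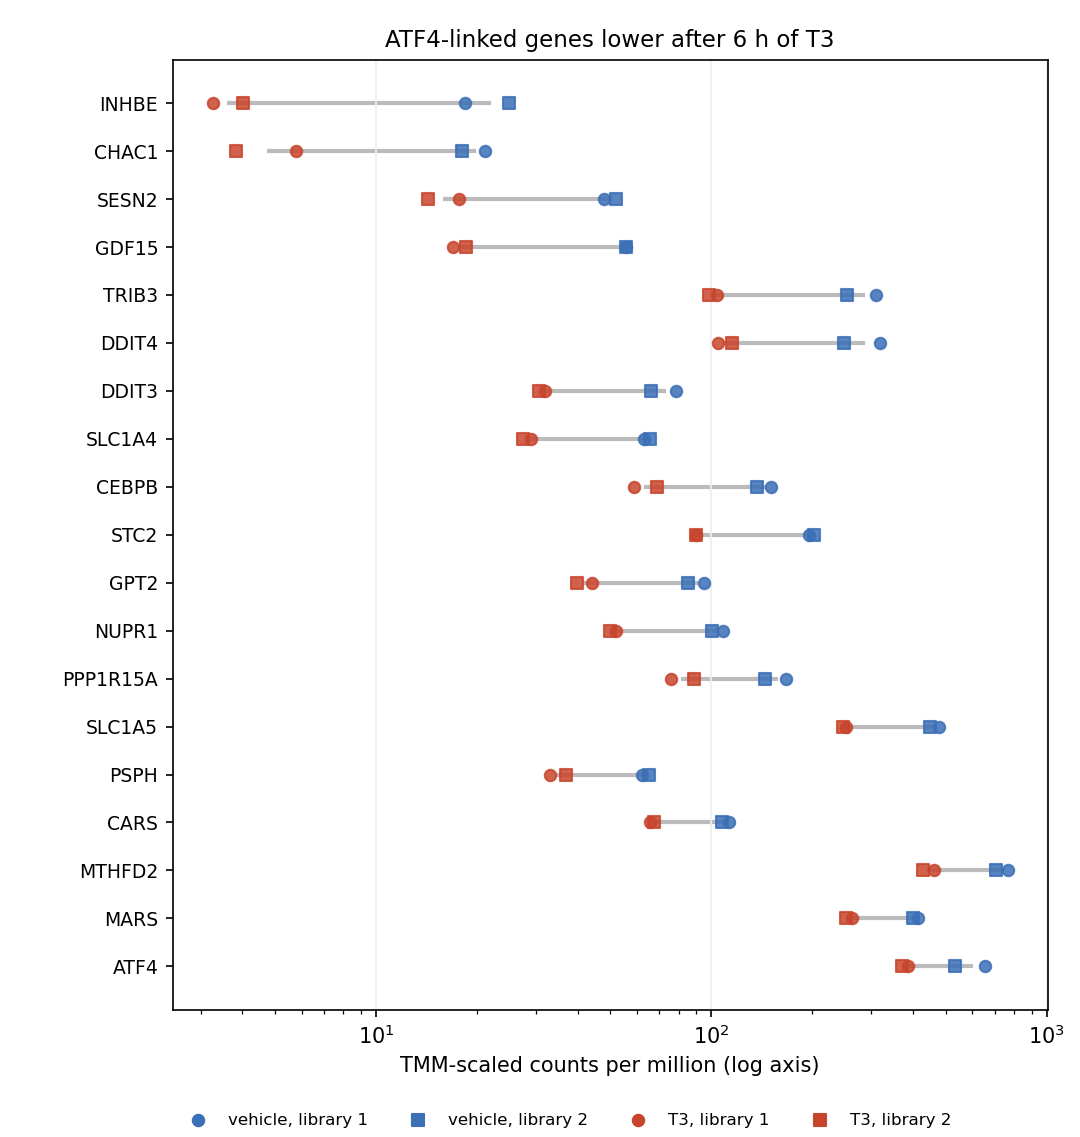
Level in each 6 h library, on a log axis of TMM-scaled CPM, of 19 genes that ATF4 or its partners are known to induce, with vehicle in blue, T3 in red, circles for library 1, squares for library 2, and a grey bar joining the group means. All T3 points lie to the left of all vehicle points of the same gene, from a log2 fold change of -2.52 for INHBE to -0.66 for ATF4. The genes shown were picked among those called lower, so this separation follows from the choice. ASNS and PSAT1, which were not called, are not shown.

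The enzyme and transporter branches of the same programme moved in part. Of 20 tested genes of amino acid synthesis and one-carbon metabolism 5 were lower and 1 higher (median log2 fold change -0.34). Over all tested genes these shares were 3.86% and 3.78%. GPT2, which makes alanine, fell from 94.9 and 85.1 to 44.2 and 39.6 CPM (log2 fold change -1.11, edgeR adjusted p = 0.00196), PSPH, the last enzyme of serine synthesis, from 62.1 and 65.1 to 32.9 and 36.8 CPM, and the mitochondrial folate enzyme MTHFD2 from 765 and 704 to 461 and 428 CPM. BCAT1, which transaminates branched-chain amino acids, fell from 44.0 and 61.8 to 14.1 and 12.5 CPM and was the only stable call of the list, though far more abundant at 24 h. SHMT2 fell by 0.39. ASNS, the asparagine synthetase gene and a common marker of ATF4 activity, stood at 19.3, 12.7, 9.05 and 9.25 CPM and missed the threshold (edgeR adjusted p = 0.105), as did PSAT1 (log2 fold change -0.30, edgeR adjusted p = 0.217). The count of falls was 1 without vehicle library 1, 3 without vehicle library 2, 2 without T3 library 1 and 1 without T3 library 2.

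Of 16 amino acid transporters 2 fell and 1 rose, beside 3.86% and 3.78% over all tested genes. SLC1A4, a carrier of serine and alanine, fell from 63.0 and 65.5 to 28.96 and 27.4 CPM (log2 fold change -1.19, SE 0.17, edgeR adjusted p = 0.000615), a stable call. Its glutamine-carrying relative SLC1A5 fell from 478 and 450 to 252 and 247 CPM (edgeR adjusted p = 0.00315) but missed without vehicle library 1 or either T3 library (highest adjusted p = 0.0627). In both genes the vehicle libraries were alike and about equally far above the T3 libraries. Of 20 cytosolic tRNA synthetases 5 were lower (MARS, CARS, SARS, GARS and YARS) and 1 higher (FARSB), while the median of the list was -0.00. MARS, which charges methionine tRNA, fell from 414 and 400 to 262 and 251 CPM (log2 fold change -0.67, edgeR adjusted p = 0.00228) and CARS, for cysteine, from 113 and 108 to 65.5 and 67.4 CPM. The other 3 fell by 0.64 (SARS), 0.54 (GARS) and 0.47 (YARS). No synthetase was a stable call, and the 5 falls became 1, 3, 1 and 0 without vehicle library 1, vehicle library 2, T3 library 1 and T3 library 2. DDIT3 and MARS overlap on opposite strands, so some of their reads cannot be told apart.

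The RefSeq promoter windows (build GRCh38.p14, 250 bases before to 50 after the start) were searched on both strands for TGATGNAA, the composite C/EBP-ATF element through which ATF4 acts, and 10358 tested genes had a window. It was found in 1.67% of all windows, 1.75% of those of genes called higher and 2.74% of those called lower. Among the tRNA synthetases 6 of 16 windows held it, among the amino acid genes 4 of 13, and among the transcription factor and feedback genes 3 of 15. Among the called members of these lists it was in 2 of 5, 1 of 2 and 2 of 12 windows. Most members with the element were thus not called. The stretches around the match are shown for 4 genes that fell, because they are the members of these 3 lists that were called lower and have the element in their window. PPP1R15B, which was called higher, also has it. They read 5′ to 3′ along the gene, with the element in capitals on either strand.
CHAC1 (chr15:40953221-40953329, plus strand): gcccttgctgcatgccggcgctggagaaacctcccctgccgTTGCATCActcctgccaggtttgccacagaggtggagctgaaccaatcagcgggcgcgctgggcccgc
MARS (chr12:57488004-57488071, plus strand): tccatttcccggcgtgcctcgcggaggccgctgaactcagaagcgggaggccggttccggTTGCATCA
CARS (chr11:3057418-3057485, minus strand): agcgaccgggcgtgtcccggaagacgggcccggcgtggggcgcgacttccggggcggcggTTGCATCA
BCAT1 (chr12:24949102-24949209, minus strand): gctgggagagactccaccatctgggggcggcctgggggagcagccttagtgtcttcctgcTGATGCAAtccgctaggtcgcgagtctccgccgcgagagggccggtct
The match began 209 bases before the annotated start in CHAC1, 48 in BCAT1, 4 in MARS and 2 in CARS. The receptor element itself (DR4, a direct repeat of AGGTCA with 4 bases between) was in 0 of the 10358 windows, and its single AGGTCA site was in 9.52% of all windows, 9.87% of the windows of genes called higher and 6.73% of those called lower. A match describes these letters only. The exact DR4 letters were absent from all windows, so they cannot set called genes apart or tell whether a receptor binds.

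Endoplasmic reticulum stress genes were tested beside the ATF4 genes. Of 21 tested members of the list of chaperones and the unfolded protein response 1 rose and 1 fell, shares near those of all genes (3.78% and 3.86%). HSP90B1, an endoplasmic reticulum chaperone, rose from 388 and 444 to 591 and 599 CPM (log2 fold change 0.52, edgeR adjusted p = 0.0157), lost after GC and length correction (adjusted p = 0.133). Its call was also lost in at least 1 leave-out of a 6 h library, with log2 fold changes of 0.43 to 0.65 over these leave-outs. HSPA5, the HSP70 chaperone of the endoplasmic reticulum, stood at 350 and 329 CPM with vehicle and 400 and 362 CPM with T3 (log2 fold change 0.17, edgeR adjusted p = 0.449). ERN1, the sensor IRE1, was the member that fell, from 41.3 and 50.3 to 27.1 and 23.7 CPM (edgeR adjusted p = 0.0137), a call lost without any 1 of the 4 libraries (highest adjusted p = 0.205). Of 22 apoptosis regulators 0 passed by edgeR or DESeq2, with 6 at an unadjusted edgeR p under 0.05, and of 24 autophagy and lysosome genes 1 rose and 2 fell. GTPBP2, a ribosome rescue factor, fell from 123 and 117 to 60.8 and 55.5 CPM (log2 fold change -1.05, edgeR adjusted p = 0.000245), a stable call. NFE2L1, the factor that drives proteasome genes when proteasomes are impaired, was a further stable call noted after its value was seen (326 and 322 to 178 and 185 CPM, log2 fold change -0.83, edgeR adjusted p = 0.000512).

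Proteasome and cochaperone genes rose by less. Of 32 proteasome genes 6 were higher and none lower, with 27 of 32 log2 fold changes above 0 (median 0.21). Over all tested genes 3.78% were higher and 3.86% lower. PSMD12 went from 93.4 and 103 to 157 and 147 CPM and PSMD11 from 134 and 134 to 193 and 193 CPM, both lid subunits of the regulatory particle (edgeR adjusted p = 0.00656 and 0.0155). PSMA1, a core subunit, showed the largest rise among the 32, from 19.6 and 18.0 to 42.3 and 34.6 CPM (log2 fold change 1.02, edgeR adjusted p = 0.0143). The 6 rises became 0 without vehicle library 1 or either T3 library and 2 without vehicle library 2, and after GC and length correction PSMD11 and PSMA1 were called (adjusted p = 0.0115 and 0.0377) and PSMD12 was not (0.171). Among 15 ubiquitin and cochaperone genes 6 rose (median 0.47). CACYBP, a ubiquitin ligase adaptor, rose from 145 and 144 to 262 and 283 CPM (log2 fold change 0.92, edgeR adjusted p = 0.000615) and was the stable one. The HSP90 cochaperone genes CHORDC1, STIP1, AHSA1 and FKBP4 rose by 1.31, 0.80, 0.71 and 0.66 on the log2 scale. All 4 lost their calls without vehicle library 1, STIP1, AHSA1 and FKBP4 also without T3 library 1, and AHSA1 and FKBP4 without T3 library 2, with highest edgeR adjusted p between 0.0672 and 0.104. After GC and length correction 5 of the 15 were still higher.

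A few sterol genes rose. Of 18 cholesterol synthesis genes 4 were higher and none lower, with a median log2 fold change of 0.08. The shares over all tested genes were 3.78% and 3.86%. HMGCS1, which makes HMG-CoA, rose from 119 and 129 to 257 and 235 CPM (log2 fold change 0.99, SE 0.13, edgeR adjusted p = 0.000313) and was stable. IDI1, an isomerase, went from 55.5 and 56.1 to 104 and 90.5 CPM, and MSMO1, a later demethylating oxidase, from 20.2 and 22.1 to 38.7 and 40.03 CPM. IDI1 was lost without vehicle library 1 or T3 library 1 (highest adjusted p = 0.101), and MSMO1 without any 1 of the 6 h libraries and after GC and length correction (highest adjusted p over the leave-outs 0.272). INSIG1, which retains sterol sensors in the endoplasmic reticulum, rose from 51.5 and 55.2 to 92.7 and 87.5 CPM (edgeR adjusted p = 0.013), lost without vehicle library 1 or either T3 library (highest adjusted p = 0.193). LRP1, a large endocytic receptor, fell from 161 and 152 to 81.8 and 85.7 CPM (log2 fold change -0.90, edgeR adjusted p = 0.000764), a stable call.

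Growth-related lists leaned upward by small amounts, beside 3.78% of all tested genes called higher. In mitosis 6 of 28 genes rose (CDK1 from 151 and 160 to 249 and 249 CPM, CENPF from 419 and 561 to 768 and 788 CPM), and 26 of 28 log2 fold changes were above 0 (median 0.36). Among nucleolar ribosome biogenesis genes 5 of 28 rose, among them the rRNA processing factors UTP15 (0.73), UTP20 (0.68) and WDR43 (0.62), and 27 of 28 were above 0 (median 0.29). SR and hnRNP splicing factors gave 7 rises of 29, with 28 above 0 (median 0.28), including the kinase CLK1 (0.65) and SRSF2 (0.50). Mitochondrial ribosomal proteins gave 7 rises of 76 (median 0.12), MRPL50 at 1.02. No member of these 4 lists fell, and none was a stable call. Without vehicle library 1 the 4 lists held 0 calls, without vehicle library 2 they held 6, 6, 3 and 3, without T3 library 1 0, 1, 0 and 1, and without T3 library 2 0, 0, 0 and 2. After GC and length correction they were 1, 2, 0 and 1, and the median stayed at 0.29 for the nucleolar list but went to 0.13, 0.09 and 0.06 for the others. SRSF2 shares genome with MFSD11 on the opposite strand, which was called lower (log2 fold change -0.97, edgeR adjusted p = 0.0134). Polyamine and nucleotide synthesis gave 3 rises of 22, led by AMD1, which makes the aminopropyl donor of polyamines (103 and 107 to 173 and 184 CPM, edgeR adjusted p = 0.00252, lost without vehicle library 1 or T3 library 2 and after GC and length correction).

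**Figure D3:**
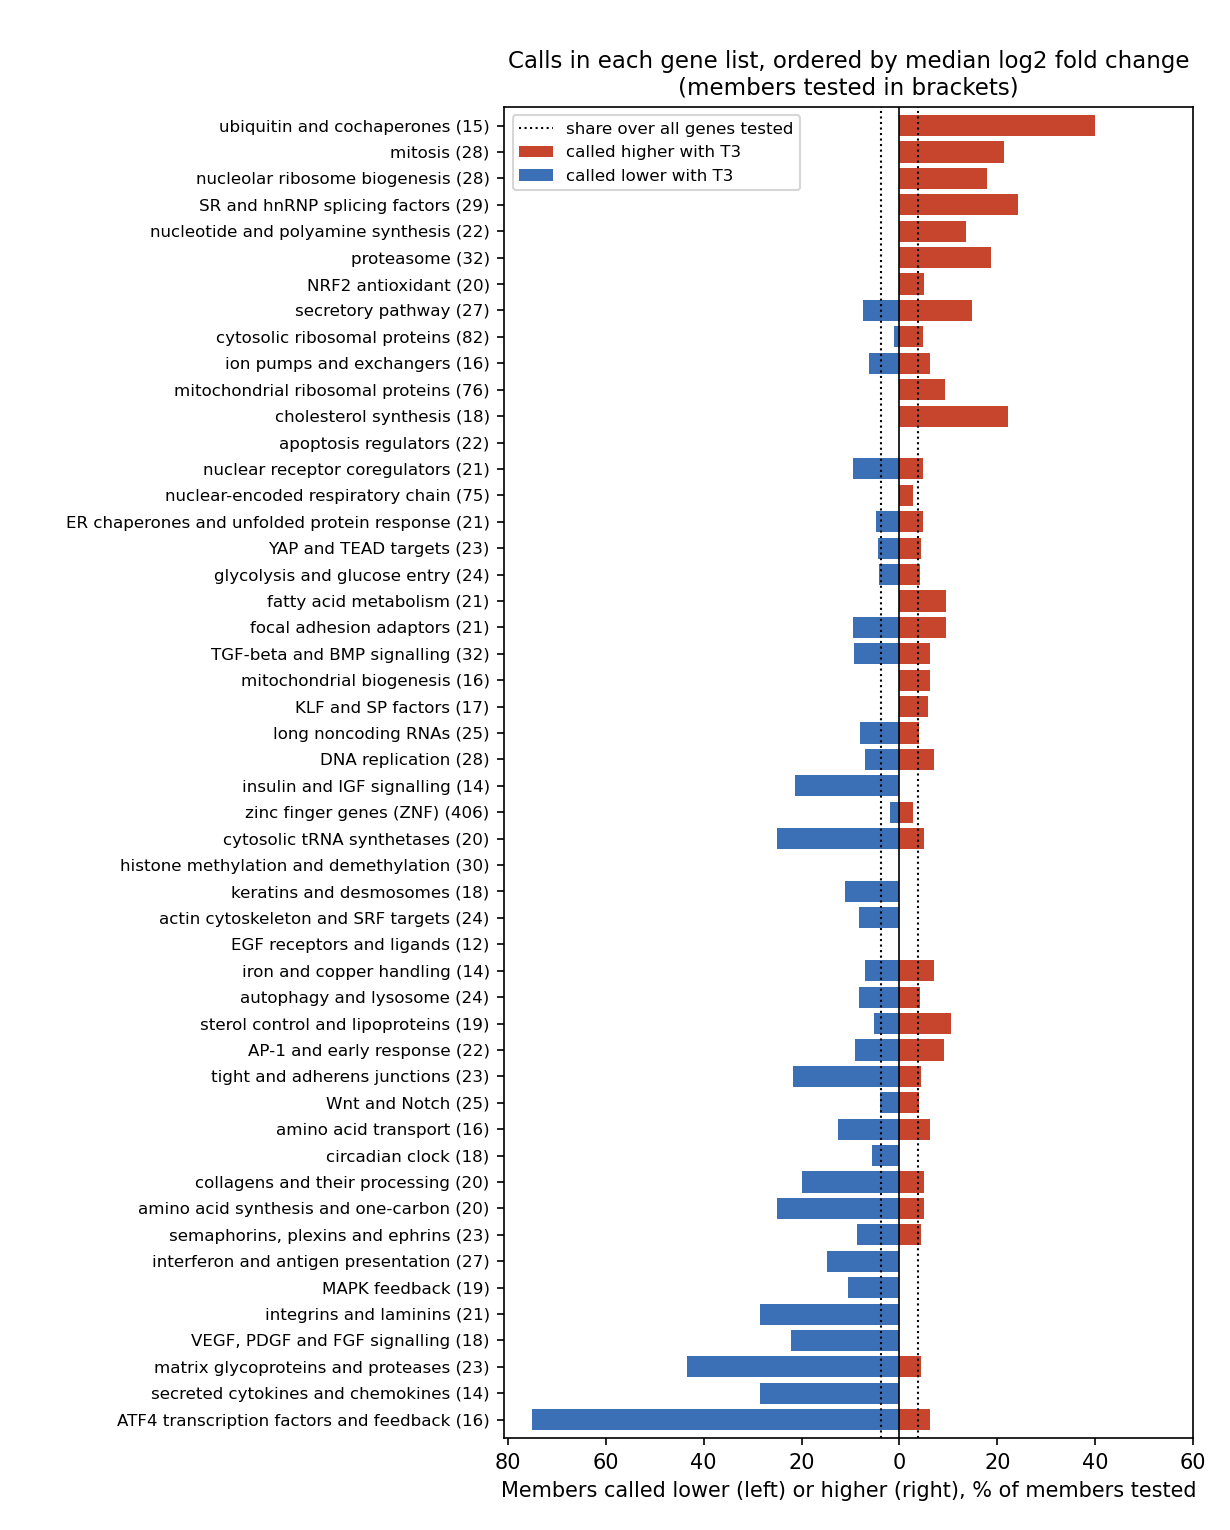
Share of the tested members of 50 gene lists called higher (red, right) or lower (blue, left) with T3 at 6 h, in percent of members tested, ordered by median log2 fold change, with dotted lines at the shares over all genes (3.78% and 3.86%). The list of ATF4 factors and feedback genes has the longest bar to the left (12 of 16) and the ubiquitin and cochaperone list the longest to the right (6 of 15).

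Some genes of cell-matrix contact fell. Of 21 integrins and laminins 6 were lower and none higher (median log2 fold change -0.40), beside 3.86% and 3.78% over all tested genes. ITGA3, the laminin-binding integrin subunit alpha 3, fell from 170 and 181 to 97.4 and 95.4 CPM (log2 fold change -0.87, SE 0.13, edgeR adjusted p = 0.000997) and was stable. ITGB4 and LAMB3, an integrin and a laminin chain of hemidesmosomes, went from 63.3 and 52.4 to 29.7 and 25.1 CPM and from 138 and 106 to 69.9 and 68.8 CPM. Both lost their calls without vehicle library 1 or either T3 library (highest adjusted p = 0.149 and 0.169), and LAMA5 did too (0.374). After GC and length correction 6 members were lower, LAMA5 no longer among them (adjusted p = 0.587). The count of falls was 1 without vehicle library 1 or either T3 library and 4 without vehicle library 2. Of 23 tight and adherens junction genes 5 fell, among them CLDN1 (102 and 115 to 57.9 and 59.1 CPM, lost only without T3 library 1), and GJA1, the connexin 43 gene, rose from 6.63 and 4.91 to 16.3 and 14.9 CPM (edgeR adjusted p = 0.0223), a call lost without any 1 of the 6 h libraries (highest adjusted p = 0.161).

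Matrix genes fell in larger number, but several were far more abundant in the libraries of 24 h. Of 23 matrix glycoproteins and proteases 10 were lower and 1 higher (median -0.66), beside 3.86% and 3.78% over all tested genes. Among the 10, 5 had a mean over the 24 h libraries at least 8-fold above that of 6 h. Fibronectin, FN1, fell from 457 and 646 to 133 and 122 CPM at 6 h and stood at 7486 to 9006 CPM at 24 h. TGFBI, a secreted integrin ligand, is not of that kind and fell from 258 and 271 to 138 and 131 CPM (log2 fold change -0.98, SE 0.11, edgeR adjusted p = 0.000106), a stable call. The heparan sulfate proteoglycan gene HSPG2 fell from 599 and 590 to 312 and 374 CPM, lost only without T3 library 1 (adjusted p = 0.0829). Collagen genes COL6A2 (21.1 and 25.4 to 5.79 and 5.83 CPM) and COL1A1 (188 and 189 to 98.1 and 104 CPM) were stable falls among 4 of 20. Their means were also higher at 24 h than at 6 h, 3.92-fold and 6.31-fold, which is below the 8-fold cut.

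Over all tested genes, 825 (5.65%) were at least 8-fold higher at 24 h, and of these 85 were called lower with T3 at 6 h and 0 higher, a share of 10.3% against 3.47% of the other genes. Over the 225 such genes with at least 20 CPM at 24 h, the median level at 6 h was 7.75% and 9.88% of the 24 h level in the vehicle libraries and 3.70% and 3.83% in the T3 libraries. Of the 45 stable falls 12 belonged to these genes, FN1, BCAT1 and the chemokine gene CXCL8 (17.2 and 23.3 to 7.60 and 6.44 CPM) among them. The part of this difference between libraries in these falls was not tested. None of the 16 ATF4 factors and feedback genes belonged to them. In the other direction, 880 tested genes were at least 8-fold higher at 6 h than at 24 h. Of these 32 were called lower and 26 higher with T3 at 6 h, beside 3.86% and 3.78% over all tested genes. Tested directly, the T3 response differed between 6 h and the libraries of 24 h as labelled for 269 genes (1.84%), 144 of which were among the 1117 calls at 6 h.

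**Figure D4:**
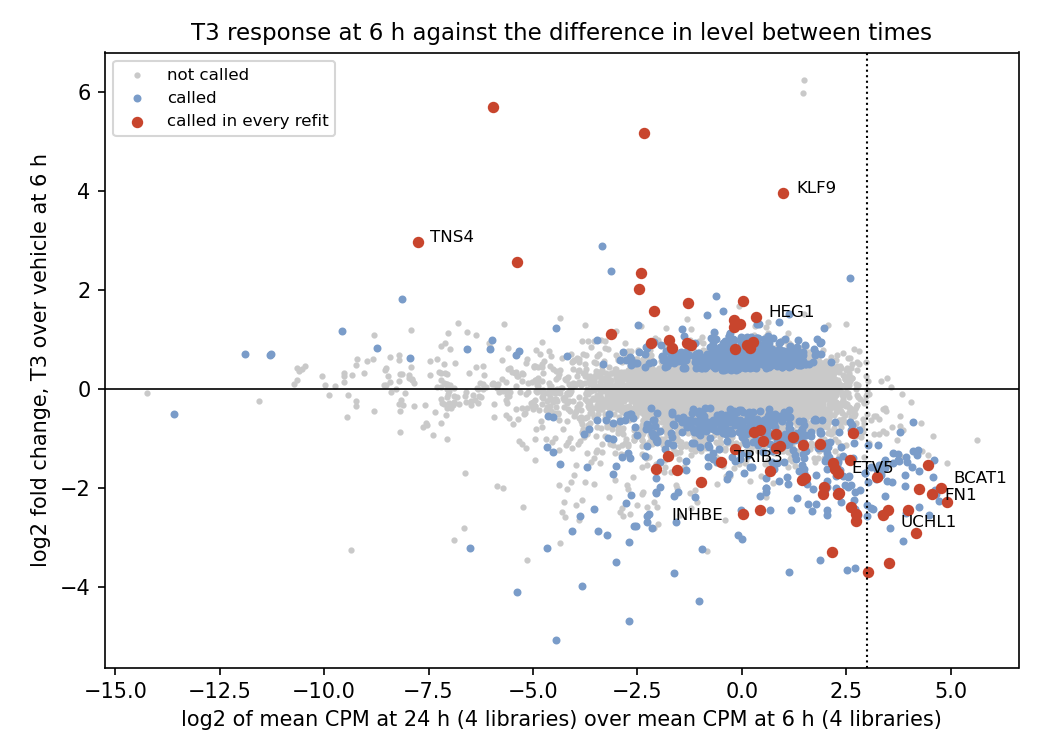
Log2 fold change of T3 over vehicle at 6 h against the log2 ratio of the mean level at 24 h over that at 6 h, for 11444 genes with a mean of at least 5 CPM in either 6 h group, grey where not called, blue where called and red where the call was stable. Right of the dotted line (8-fold) all called genes lie below 0, FN1, BCAT1 and UCHL1 among them, while TRIB3 and INHBE lie near a ratio of 1.

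Further stable falls were in signalling and nuclear genes. DAPK3, a kinase that phosphorylates myosin light chain (chromosome 19, 3958453 to 3971123, minus strand), fell from 288 and 263 to 81.4 and 98.2 CPM, 3.05-fold (log2 fold change -1.61, SE 0.14, edgeR adjusted p = 2.83e-06). KIF21B, a kinesin gene, had 41.0 and 41.3 against 10.5 and 11.7 CPM, and ZNF772, a zinc finger gene, 28.9 and 19.6 against 3.62 and 5.03 CPM (log2 fold changes -1.88 and -2.45, edgeR adjusted p = 0.000188 and 0.000278). Both T3 libraries of these 3 genes lay below both vehicle libraries, as for every gene called lower. ZNF772 did not stand for its family, since of 406 tested ZNF genes 11 rose and 8 fell with a median of 0. Over all tested genes 3.78% rose and 3.86% fell.

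ETV5, a transcription factor induced by MAPK signalling, fell from 33.5 and 38.9 to 10.1 and 11.7 CPM (log2 fold change -1.70, edgeR adjusted p = 9.76e-05). It was the stable call among 2 falls in 19 MAPK feedback genes, beside 3.86% lower over all tested genes. PHLDA1, the other of these, fell by 1.17 and was lost without any 1 of the 6 h libraries. PIK3CD, a catalytic subunit of PI3-kinase, fell from 22.3 and 17.6 to 5.07 and 4.43 CPM, and GAS6, the ligand of the TAM receptor kinases, from 35.9 and 42.6 to 8.32 and 12.7 CPM. DKK3, a secreted Wnt modulator, fell from 20.8 and 27.8 to 4.71 and 6.04 CPM, and SLFN5, an interferon-inducible gene, from 61.8 and 84.3 to 21.7 and 25.1 CPM. Below the 8-fold cut, mean levels were also higher at 24 h than at 6 h for PIK3CD (4.998-fold), ETV5 (4.98), DKK3 (3.83) and GAS6 (2.72). For DAPK3 and KIF21B they were lower at 24 h (0.241 and 0.512 of the 6 h mean). The part of this in the falls was not tested. VEGFA, the vascular growth factor gene, fell from 106 and 110 to 59.4 and 66.4 CPM (log2 fold change -0.77, edgeR adjusted p = 0.00378), lost only without T3 library 1 (adjusted p = 0.098).

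Other lists held few or no calls, beside 3.78% higher and 3.86% lower over all genes, and nothing is read from their counts. Among 17 KLF and SP factors KLF9 was the only call. Of 18 circadian clock genes 1 fell, of 30 histone methylation genes 0 passed by edgeR or DESeq2 (6 at an unadjusted edgeR p under 0.05), and of 75 nuclear-encoded respiratory chain genes 2 rose with a median of 0.05. Of 24 genes of glycolysis and glucose entry 1 rose and 1 fell. The 12 EGF receptors and ligands held 0 calls by either tool and 3 genes at an unadjusted edgeR p under 0.05.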

How the data were processed

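Total RNA of Nthy-ORI cells was depleted of ribosomal RNA and sequenced. The authors deposited raw read counts per gene symbol, made with CASAVA 1.7, STAR 2.7, HTSeq and DESeq2 on hg38 per the submitters' processing notes. The annotation and strand setting they used are not stated. Of 56832 gene rows, 14611 passed the edgeR filterByExpr filter, and 5 summary rows were left out of library sizes and tests.

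The robust quasi-likelihood F test of edgeR 4.0.16 (R 4.3.3, TMM, Benjamini-Hochberg adjustment) was fitted to the 4 groups of all 8 libraries, with 4 residual degrees of freedom and a biological coefficient of variation of 13.1%. The test was tested on simulated data with known changes. Alternatives were other scalings, DESeq2 1.42.0, no low count filter, only the 6 h libraries, a replicate block, a correction for GC content and exon length (GENCODE 29 by symbol, 12584 tested genes, lowess span 0.3) and each library left out.

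The 50 gene lists (1766 entries, 1625 tested, 26 by an older symbol) and the members described were chosen with earlier results of these data known. Named genes passed the threshold without overlap of groups and with at least 5 CPM in the higher group: the 30 largest rises and falls, the 20 smallest p-values, the 40 largest stable calls in each direction and up to 8 called members per list. Genes outside that rule are named as uncalled members, cell type markers or neighbours that overlap a named gene, or said to have been chosen afterwards. Some genes are left out of the text.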

Additional observations from a re-analysis of the deposited data

Results flagged for a closer look

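Of the 1117 genes called at 6 h, 144 (12.9%) differed in their T3 response from the libraries of 24 h as labelled (edgeR test of the difference, adjusted over all genes). Both tests use the 6 h libraries, so the share is given as a description. For 98 of the 144 the fold change at 24 h as labelled had the opposite sign to that at 6 h. KLF9 and HR are among the genes that go against the labels of 24 h. There KLF9 averaged 26.1 CPM under the vehicle label and 3.07 CPM under the T3 label, HEG1 280 and 128 CPM, and NPTX1 14.3 and 3.05 CPM. These differences therefore hold only for the libraries as labelled. The values below are log2 fold changes at 6 h less those at 24 h. That of KLF9 was 7.03. TNS4 and HR also passed this test, but no size is given because at least 1 group of 24 h held 3 reads or fewer in all (TNS4 4 and 0, HR 45 and 3 for the vehicle and T3 labels).

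Among ATF4-linked genes the differences were -1.43 for TRIB3, -1.34 for DDIT4, -1.11 for DDIT3, -1.51 for SESN2, -2.48 for GDF15, -2.18 for INHBE, -1.03 for STC2, -1.73 for CHAC1 and -1.13 for CEBPB. TRIB3 stood at 139 and 134 CPM and DDIT4 at 58.5 and 57.5 CPM in the 24 h groups labelled vehicle and T3. Among amino acid genes the differences were -2.39 for BCAT1, -1.22 for MTHFD2, -1.07 for PSPH and -1.23 for SLC1A4. Among rises they were 2.58 for HEG1, 3.81 for NPTX1, 1.52 for PHLDB2, 0.83 for DYNLL1 and 0.83 for HMGCS1 and among cochaperones 1.04 for CACYBP, 0.99 for STIP1, 0.77 for FKBP4 and 0.97 for AHSA1. Matrix, junction and secreted factor genes gave -1.04 for TGFBI, -1.95 for FN1, -1.46 for CLDN1, -2.02 for CXCL8, -2.10 for CXCL2 and -2.26 for DKK3, and signalling and nuclear genes gave -1.09 for DAPK3, -1.45 for KIF21B, -2.81 for ZNF772, -1.57 for PIK3CD, -1.50 for GAS6, -1.86 for ETV5, -1.95 for PHLDA1, -2.29 for UCHL1, which encodes a deubiquitinase, and -1.83 for SLFN5.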

How the results depend on the processing

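None of the 106 called genes named changed direction in any setting that gave a value. The 1117 calls (553 higher, 564 lower, 382 at least 2-fold) became 2898 (1481, 1417 and 586) with only the 6 h libraries, 451 (138, 313 and 204) with GC and length correction and 267 (75, 192 and 145) when that was joined to the replicate block. Library totals alone gave 248 higher and shifted the median of all genes to -0.11, and no low count filter gave 917 higher. Leave-outs of single libraries, those of 24 h included, ranged from 131 to 1681 calls, 33 to 1030 higher, 90 to 803 lower and 99 to 533 of at least 2-fold. Genes whose response differed between times numbered 269, 674 without the count filter, 165 with GC, length and block, and 49 to 750 over the leave-outs. Same-numbered libraries were not treated as pairs. The correlation of their deviations was 0.02 at 6 h, which cannot tell whether they were paired. The replicate block alone gave 424 higher and 459 lower. At these totals 3 reads equal 0.603 to 1.23 CPM, which limits genes near that level.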

Other observations

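Of 27 interferon and antigen presentation genes 4 were lower and none higher with T3 at 6 h, against 3.86% of all genes lower. STAT2, a signal transducer of type I interferon, fell from 68.7 and 62.2 to 36.2 and 35.2 CPM (log2 fold change -0.88, edgeR adjusted p = 0.00448), a call lost without vehicle library 1 or either T3 library (highest adjusted p = 0.0959). IL1RAP, the interleukin-1 receptor accessory protein gene, rose from 13.9 and 22.1 to 50.7 and 53.7 CPM (log2 fold change 1.57, edgeR adjusted p = 0.00353), lost only without vehicle library 1 (adjusted p = 0.129). In the secretory pathway list 4 of 27 genes rose and 2 fell, one of the latter being GOLGA2, a Golgi matrix gene (126 and 116 to 69.9 and 79.1 CPM, edgeR adjusted p = 0.00724, lost without vehicle library 1 or either T3 library). The fatty acid activating enzyme gene ACSL3 rose by 0.59 and the corepressor component TBL1X fell by 0.54 on the log2 scale, and each lost its call when any 1 library of that time was left out (edgeR adjusted p up to 0.295 and 0.274).

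By gene type, protein-coding genes gave 543 rises (4.48%) and 494 falls (4.08%) of 12112, beside 3.78% and 3.86% over all tested genes. Small noncoding RNA genes gave 0 rises and 6 falls (6.12%) of 98 (median log2 fold change -0.42). The 2027 gene symbols without a match in GENCODE 29 gave 9 rises (0.444%) and 54 falls (2.66%). Neither class held a stable call. Unmatched symbols could not hold one, since they had no GC and length correction.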
